A study of Mus musculus with 3 samples.

Results

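The Reg genes encode small secreted lectins of the pancreas and gut. All probes of the 7 mouse members Reg1, Reg2, Reg3a, Reg3b, Reg3d, Reg3g and Reg4, taken by the gene symbol of the platform annotation, were followed: 8 of the 25697 probes on the arrays, for 7 of 16593 named genes. Reg3b had 2 probes and every other member 1. The family was taken up because a Reg3b probe and the Reg3g probe were already known to differ between these arrays. The values of its probes are therefore a description, with no test of them.

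The data were 3 Illumina MouseRef-8 v2.0 beadchip arrays, in 1 group of 3 replicates and with no control array. The total RNA came from pancreas of Rag1-/- mice, a line without mature lymphocytes of the T and B lineages; their age was not used here. Adenovirus, purified, had been given by direct injection to the dorsal pancreas in its splenic lobe, and the labels do not name the gene it carried. After the islets were removed, the acinar fraction was digested to single cells with liberase and elastase, and Cherry+ cells (red fluorescent) were sorted. The sample titles call them induced delta cells and the series title gives day 10, while 2 other label fields, on extraction and design, speak of induced beta cells. Nothing in the labels says whether the replicates came from separate animals, so their spread may be technical.

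Checked against that name, RNA of the delta cell hormone gene Sst was bright (13.81 ± 0.046 log2, mean ± SD, n = 3), with 4 of 6 delta cell markers detected on all 3 arrays, where 40.9% of all named genes were. Of the other delta cell markers, Hhex read 8.28 ± 0.016, Ffar4 8.26 ± 0.018 and Rbp4 6.39 ± 0.28, and Ghsr and Crhr2 were not detected. Islet hormone genes were detected for 6 of 6. Pyy (12.71 ± 0.018) and Ins2 (11.38 ± 0.039) were the brightest. Gcg (9.21 ± 0.079), Ghrl (9.18 ± 0.066), Iapp (6.13 ± 0.34) and Ppy (6.08 ± 0.042) read lower. Acinar markers were detected for 9 of 9, among them Cpa1 (14.50 ± 0.019) and Ptf1a (8.84 ± 0.033). Each array reads many cells together, so fewer cells of a type and less RNA per cell cannot be told apart, and which cells held Reg RNA is not shown.

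As background, Reg proteins carry a C-type lectin domain behind a signal peptide, and acinar cells release them into pancreatic juice. Reg1 and Reg2 belong to the first type described, known as pancreatic stone protein or lithostathine, and are made by resting acinar cells of the mouse. Reg3b, also called pancreatitis-associated protein, and Reg3g are low in the resting gland until inflammation raises them. That route runs from cytokines of the interleukin 6 and interleukin 22 families through the transcription factor STAT3. In the gut Reg3g kills Gram-positive bacteria. Reg3a is the mouse gene whose human namesake has the same use, Reg3d is related to the hamster islet neogenesis-associated protein, and Reg4 is made by enteroendocrine and goblet cells of the gut.

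In the RefSeq annotation of the assembly GRCm38.p6, 6 of the 7 genes form a cluster on chromosome 6 in the order Reg3b, Reg3d, Reg3a, Reg2, Reg1 and Reg3g, with the pseudogene Gm52853 between the last pair and no other annotated gene inside. Reg4 lies alone on chromosome 3. The 250 bases before the annotated transcription start (RefSeq, GRCm38.p6) are printed for 4 members: Reg3b and Reg3g, both highest on the array of replicate 3, Reg1, which was bright on every array, and Reg4, which was at the detection limit. Capitals mark matches, on either strand, to 4 motifs: TTCNNNGAA, the palindrome that STAT factors bind; CACCTG, a form of the E-box bound by the acinar complex PTF1; TGGGAA, the box bound by its partner RBPJ or RBPJL; and TATAAA, the TATA box. The Reg1 window is chr6:78425733-78425982 on the plus strand, that of Reg3b is chr6:78370635-78370884 on the plus strand, that of Reg3g is chr6:78468875-78469124 on the minus strand, and that of Reg4 is chr3:98221906-98222155 on the plus strand.
Reg1: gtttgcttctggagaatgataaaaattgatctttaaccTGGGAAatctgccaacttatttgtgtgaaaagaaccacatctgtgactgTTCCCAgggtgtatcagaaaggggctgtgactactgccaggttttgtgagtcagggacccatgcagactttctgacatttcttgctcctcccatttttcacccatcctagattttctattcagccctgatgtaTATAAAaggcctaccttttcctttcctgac
Reg3b: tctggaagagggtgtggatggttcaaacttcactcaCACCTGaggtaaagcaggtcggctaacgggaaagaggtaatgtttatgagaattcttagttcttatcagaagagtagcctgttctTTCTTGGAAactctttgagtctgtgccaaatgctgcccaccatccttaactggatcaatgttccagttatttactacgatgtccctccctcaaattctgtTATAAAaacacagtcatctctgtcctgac
Reg3g: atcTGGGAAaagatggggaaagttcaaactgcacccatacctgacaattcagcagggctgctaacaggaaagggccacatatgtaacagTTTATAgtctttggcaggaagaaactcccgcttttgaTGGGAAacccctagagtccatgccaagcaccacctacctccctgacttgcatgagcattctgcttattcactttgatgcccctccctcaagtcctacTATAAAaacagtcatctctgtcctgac
Reg4: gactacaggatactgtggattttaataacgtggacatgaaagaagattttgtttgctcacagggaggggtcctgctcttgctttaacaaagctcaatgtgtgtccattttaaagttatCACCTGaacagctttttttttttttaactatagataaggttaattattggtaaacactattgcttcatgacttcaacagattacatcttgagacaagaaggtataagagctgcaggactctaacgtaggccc

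As a share of the whole 250-base window, Reg3b and Reg3g had the most identical bases of all 21 pairs after global alignment, 69.2%, followed by Reg1 and Reg2 with 62.4%, and the other pairs lay between 51.6% and 59.6%. Counted over aligned bases alone, without gaps, Reg3a and Reg3g came first with 71.9% and Reg3b and Reg3g had 70%. The last 20 bases before the start, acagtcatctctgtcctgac, are the same in Reg3b and Reg3g. No other pair shared an unbroken run of more than 12 bases. These 2 genes are the ends of the cluster and face opposite ways.

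A TATA box stood close to the start in Reg1, Reg2, Reg3b and Reg3g, with its first base 27 to 30 bases before it (4 of 7; Reg3g held another match farther off, on the opposite strand). Counted at any position and on either strand, that motif was in 4 of 7 Reg windows and in 12.4% of all 32851 promoter windows. The share of all windows with it close to the start was not counted. The E-box CACCTG was in 5 of 7 windows (Reg2, Reg3a, Reg3b, Reg3d and Reg4), against 17.2% of all windows, and TGGGAA was in 5 of 7 (Reg1, Reg2, Reg3a, Reg3d and Reg3g), against 21.6%. The STAT palindrome was in 2 of 7, 129 to 121 bases before the start of Reg3b and 238 to 230 before that of Reg3d, where it overlaps a TGGGAA match on the opposite strand. It was in 7.02% of all windows. These letters were not found in the Reg3g window, which says nothing of sites elsewhere. The cluster genes share descent, so their windows are not independent, and a match is not a bound site.

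**Figure D1:**
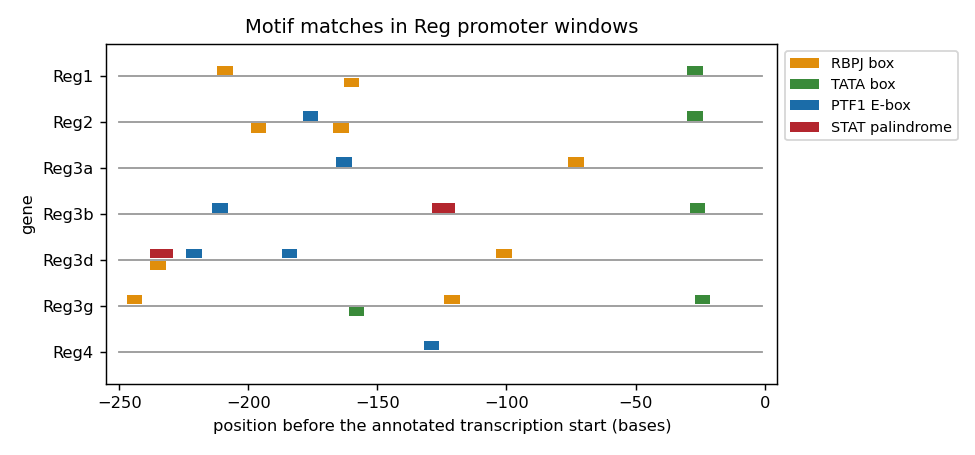
Motif matches in the 250 bases before the annotated start of each Reg gene; the horizontal axis is the position in bases before the start, and boxes above a gene's line are on the gene's strand, boxes below it on the opposite strand. Reg1, Reg2, Reg3b and Reg3g have a TATA box beginning 27 to 30 bases before the start, and the STAT palindrome appears in Reg3b and Reg3d.

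Of the 8 Reg probes 7 were detected on all 3 arrays, where a probe counts as detected when its deposited detection p against the array's negative control beads is under 0.05; 33.0% of all probes were. By gene 6 of 7 were detected, against 40.9% of named genes. Reg4 was the exception. The arrays each detected 35.6% to 37.8% of probes, and the controls' 95th percentile lay at intensities of 63.2 to 73.3, or 4.75 to 4.83 on the normalised log2 scale used below. Deposited intensities are linear bead brightnesses, already scaled by the authors to a common array mean of 211.8; normalised levels are these values after background correction and quantile normalisation. Probes differ in how well they bind, so brightness is not compared between genes as an amount of RNA.

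Reg1, the pancreatic stone protein gene, read deposited intensities of 41390, 38877 and 36014 on the arrays of replicates 1, 2 and 3. The arrays differed by a factor of 1.15 from lowest to highest, and the normalised level was 15.26 ± 0.039 (n = 3 here and below). Its probe was the brightest of all on replicate 2 and the second brightest on the others. Reg2, its close relative, read 31453, 29811 and 29676, a factor of 1.06, at a level of 14.88 ± 0.028. Both probes read lowest on replicate 3 in the deposited intensities. After quantile normalisation Reg1 was highest on replicate 2, and after median scaling on replicate 1, so the order of the arrays for Reg1 depends on the scaling. Reg2 was highest on replicate 1 under both, with ranges of 0.054 and 0.043 log2 units.

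Reg3a read 37468, 35702 and 34089, with ranks of 4, 4 and 3 among all probes by brightness, at a level of 15.13 ± 0.046. Its arrays also stood in an order set by the scaling: quantile normalisation put replicate 3 highest with a range of 0.08, and median scaling put replicate 1 highest with a range of 0.095. Reg3d, the relative of the hamster islet neogenesis gene, read 7632, 8554 and 8400, at a level of 12.99 ± 0.07. Replicate 1 was the lowest array for Reg3d under both scalings, while replicates 2 and 3 were tied after quantile normalisation.

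The brighter Reg3b probe read 30645, 30846 and 31797, at a level of 14.94 ± 0.087. It was highest on replicate 3 but by little: the highest array exceeded the lowest by a factor of 1.04. The dimmer probe of the same gene read 688, 752 and 1277, a factor of 1.86, at a level of 9.69 ± 0.45. On it, replicates 1 and 2 lay close together and replicate 3 stood well above both. Reg3g read 2883, 2868 and 4315, a factor of 1.5, at a level of 11.67 ± 0.3. Replicate 3 was again above 2 near-equal arrays.

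Reg4, the gut member, read 76.9, 68.6 and 62.8, within 1.21 to 1.27 times the controls' median on each array. Its detection p was 0.0238 and 0.0201 on replicates 1 and 2 and 0.0551 on replicate 3. It passed on 2 arrays and missed narrowly on the other, at 4.88 ± 0.14 on the log2 scale. Without replicate 3, or where 2 of 3 arrays sufficed, all 8 probes and 7 genes counted as detected. At a detection p under 0.01 Reg4 passed on none, and the other 7 probes still did on all 3 arrays.

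**Figure D2:**
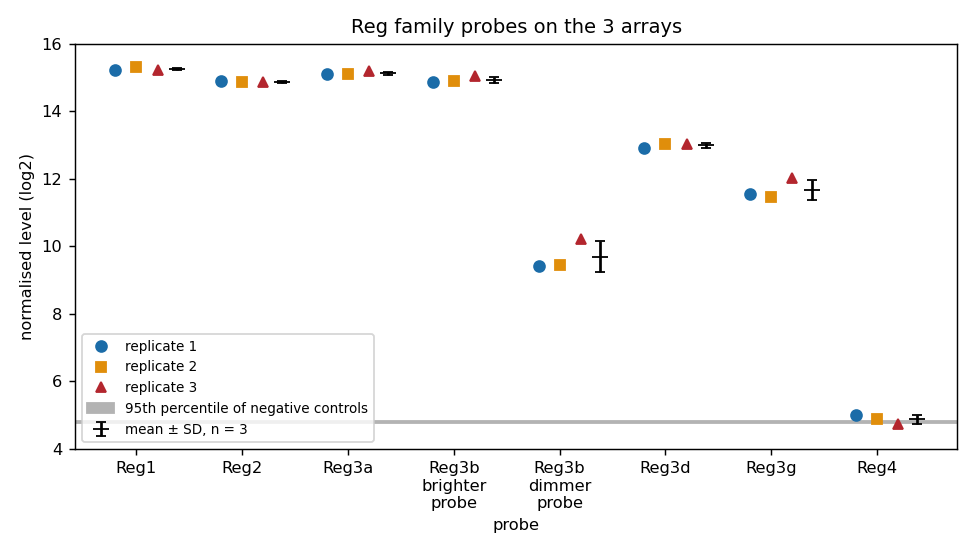
Normalised log2 level of each Reg probe on the 3 arrays; points are arrays, black bars the mean ± SD (n = 3), and the grey band the 95th percentile of the negative controls (4.75 to 4.83). Reg1, Reg2, Reg3a and the brighter Reg3b probe lie between 14.86 and 15.31 on every array, Reg4 lies at the band, and the dimmer Reg3b probe and Reg3g are higher on replicate 3 than on the others.

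On the normalised scale the dimmer Reg3b probe read 9.41, 9.45 and 10.22 and Reg3g 11.55, 11.45 and 12.02. Replicate 3 exceeded the mean of the other arrays by 0.79 log2 units for the first and 0.52 for the second (0.90 and 0.62 with median scaling, under which the median of all detected probes differed by 0.16 between arrays). These 2 of 7 detected Reg probes ranged over 0.5 log2 units between arrays, against 2.85% of all detected probes (5.16% with median scaling, 0.412% without background correction, 0.507% with an offset of 50 and 0.448% in the authors' processed table, with the same 2 of 7 each time); the members were chosen with this known, and nothing is read from the count. Their ranges, 0.8 and 0.57, stood at the 99.8th and 98.4th percentile of all 8486 detected probes. Of the other detected Reg probes, ranges ran from 0.054 for Reg2 to 0.16 for the brighter Reg3b probe, between the 8.78th and 48.4th percentile.

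The spread of probes narrowed with brightness, so each range is also given beside probes of like level. Among the 668 detected probes within 0.5 log2 units of the dimmer Reg3b probe, the median range was 0.11 and none but that probe reached 0.8. Of the 157 probes within 0.5 log2 units of Reg3g, whose median range was 0.091, none but Reg3g ranged over 0.5. The family was chosen because a Reg3b probe and the Reg3g probe were known to differ. Their places among like probes and their percentiles are therefore description, not a test. Around Reg3d there were 37 probes, and 10 of them, Reg3d included, ranged at least as widely as its 0.12.

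**Figure D3:**
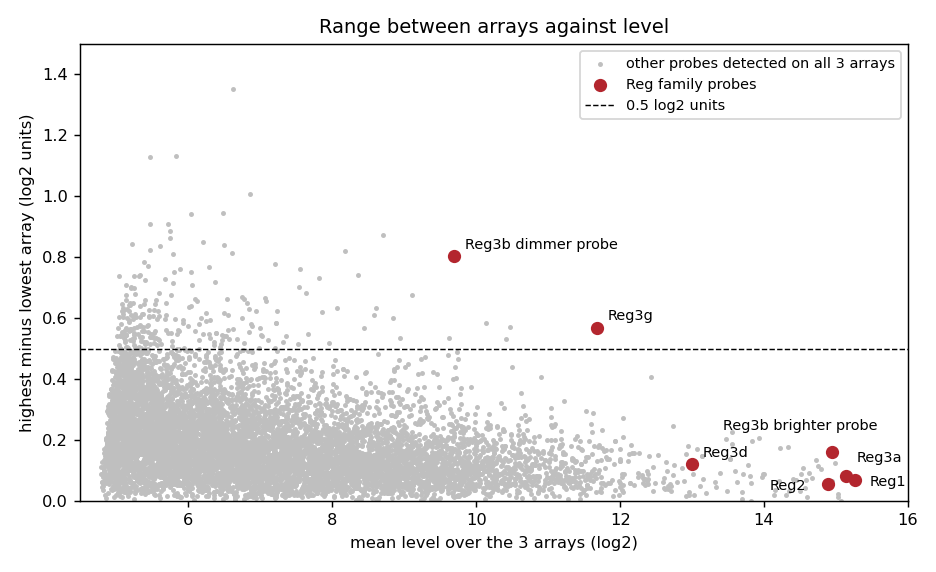
Range between arrays (highest minus lowest, log2 units) against the mean level for every probe detected on all 3 arrays, with the 7 detected Reg probes in red and a dashed line at 0.5. The dimmer Reg3b probe (0.8) and Reg3g (0.57) stand above the probes of like level, and the other 5 lie at 0.16 or below. The family was chosen with differences of Reg3b and Reg3g between these arrays known.

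These differences rest on replicate 3. Without that array the dimmer Reg3b probe ranged over 0.04 log2 units and Reg3g over 0.10, and no Reg probe ranged over 0.5. Without replicate 2, the range of Reg3g was 0.47 and that of the dimmer Reg3b probe 0.81, which leaves 1 probe over 0.5. In the authors' processed table, which ranks the probes as the scanner columns do, the ranges were 0.79 for the dimmer Reg3b probe and 0.75 for Reg3g.

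Both Reg3b probes are annotated to the same transcript accession, and they gave different accounts of how far the gene moved. The brighter exceeded the dimmer by 44.5 times on replicate 1, 41 times on replicate 2 and 24.9 times on replicate 3, in deposited intensity. Their mean levels were 5.25 log2 units apart, which stood at the 97.7th percentile of the 1065 genes with at least 2 detected probes, where the median gap was 1.29. Both were highest on replicate 3; in 36.0% of those genes the brightest and dimmest probes peaked on the same array. The dimmer probe's range exceeded the brighter's by 0.64, a difference reached by 7 of the 1065 genes, Reg3b among them. Both Reg3b probes were detected on all 3 arrays, whereas 80.3% of multi-probe genes with a detected probe also held an undetected one.

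The brighter Reg3b probe sat near the top of the arrays' signal, as did those of Reg1, Reg2 and Reg3a. It ranked 12th, 11th and 6th of all probes and read 66.3%, 79.3% and 86.8% of the highest intensity on the arrays of replicates 1, 2 and 3. The dimmer probe read 1.49%, 1.94% and 3.49% of it. The 20 brightest detected probes, among them 4 Reg probes, had a median range of 0.072 and none over 0.16, which was that of the brighter Reg3b probe itself. Quantile normalisation gives a probe the value of its rank, so a top probe that keeps its rank keeps its level. Whether brightness near the top of the scale compresses differences, and which family members each probe binds, was not tested; no probe sequence was used.

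Of the 7 detected Reg probes, 4 were highest on replicate 3 (Reg3a, both Reg3b probes and Reg3g), against 29.8% of all detected probes, and 3 with median scaling, where that share was 53.2%. Reg3a is the probe that left the count. Reg3b and Reg3g, for which the family was chosen, were highest on replicate 3 under each scaling run, and Reg1 and Reg2 on none of them; the last 2 lie near the top of the signal scale, so their narrow ranges do not show that their RNA was steady.

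The 3 deviations of the dimmer Reg3b probe from its own mean were set beside those of other probes. Outside the Reg family, the nearest were of Mccc1, Selenok, Ccnl1, Klk1b5 and Slc3a2. Distances were Euclidean over 3 arrays, among 1446 detected named probes ranging over 0.3 log2 units, of which 34.2% were highest on replicate 3, so a close match is easily found. Mccc1, a subunit of a mitochondrial carboxylase, deviated from its mean by -0.28, -0.20 and 0.48 (distance 0.06). Selenok, a selenoprotein of the endoplasmic reticulum membrane, deviated by -0.22, -0.26 and 0.48 (distance 0.07). The distances of Ccnl1, a cyclin that takes part in splicing, Klk1b5, a glandular kallikrein with near-identical relatives, and Slc3a2, the heavy chain of amino acid transporters, were each 0.11. With median scaling these 5 probes were highest on replicate 3 too, as were 39.5% of the 1446. They were picked for likeness to a probe highest on that array, so this is no independent support. Klk1b5 has another, brighter detected probe that did not follow: its range was 0.026 after quantile normalisation, with replicate 2 highest. Reg3g came at the 26th place, with a distance of 0.24.

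**Figure D4:**
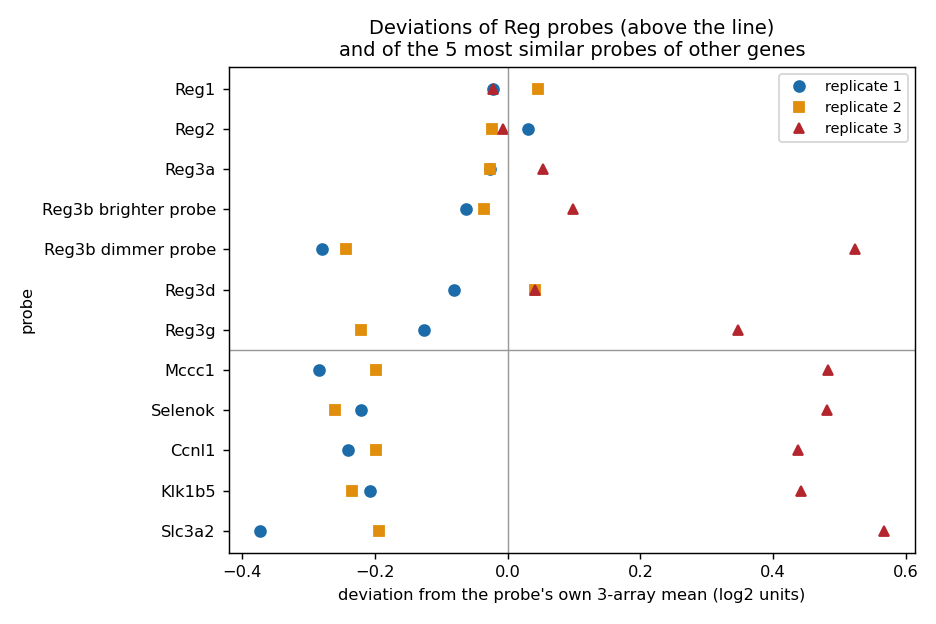
Deviation of each array from the probe's own 3-array mean (log2 units, horizontal axis) for the 7 detected Reg probes, above the grey line, and the 5 probes of other genes nearest to the dimmer Reg3b probe, below it. Replicate 3 stands apart to the right for the dimmer Reg3b probe (0.52), Reg3g (0.35) and all 5 other probes (for Klk1b5, the dimmer of 2), and the other Reg probes stay within 0.10 of their mean.

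Markers of other cell types also differed between the arrays. Of 6 measured myeloid markers 4 were detected (40.9% of named genes were), and their summed deposited intensity, over the 6, ran from 3914 to 5299 with the highest on replicate 3. Lyz2, which encodes lysozyme, read 9.89, 10.05 and 10.47, and H2-Aa, which encodes an MHC class II chain, 10.23, 10.27 and 10.76, both highest on replicate 3. Adgre1, which encodes F4/80, was highest on replicate 2. Cd74, the MHC class II invariant chain, was highest on replicate 3 in deposited intensity (1248, 1266 and 1316) and with median scaling, and on replicate 1 after quantile normalisation. The general leukocyte marker Ptprc and Itgam were not detected on any array. The summed intensity was also highest on replicate 3 for the acinar list (119076 to 122385), the delta cell list (14817 to 16329) and the islet hormones (10236 to 11239). Other lists peaked elsewhere. The duct (636 to 671), endothelial (357 to 380) and lymphoid sums (417 to 494) were highest on replicate 1. The mesenchyme sum (567 to 623) was highest on replicate 2. All these sums include undetected genes and are not corrected for background. The controls' median intensity was 60.4, 54.2 and 51.9 on replicates 1, 2 and 3. That background was highest on replicate 1, so the order of the arrays in these dim lists is not read as a difference in RNA. The sum over the Reg genes themselves, by their brightest probes, was highest on replicate 1 (144354 to 151548). In the delta cell and islet hormone lists, 1 detected gene each ranged over 0.5 log2 units, highest on replicate 3. Rbp4, a retinol carrier gene, read 6.40, 6.11 and 6.66, and Iapp, which encodes islet amyloid polypeptide, 5.75, 6.21 and 6.41. The part of these cells in the Reg3b and Reg3g values was not tested.

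The genes of the route known to raise Reg3b and Reg3g were detected unevenly by role. Of 30 measured genes of the STAT3 lists 20 were detected on all 3 arrays (66.7%, against 40.9% of named genes), with a median level of 5.59 against 4.64 over all named genes. None of the 20 ranged over 0.5 log2 units, where 185 of the 6787 detected named genes did. Of the 20, 7 were highest on replicate 3, as were 2018 of the 6787. Neither count is read as a result about the route. A list's share without a control sample shows no change.

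Of 8 ligand genes 2 were detected. Osm, which encodes oncostatin M, was detected on 1 of its 2 probes, at 8.04 ± 0.045 and highest on replicate 3 by a range of 0.088. Ctf1, which encodes cardiotrophin 1, read 6.86, 6.69 and 6.73. Il6 (4.63 ± 0.19), Il22 (4.20 ± 0.0063), Il11 (4.45 ± 0.041), Il10 (4.37 ± 0.029), Lif (4.70 ± 0.062) and Cntf (4.37 ± 0.065) were not above background on any array. Cytokine probes at background do not show that no cell of the gland made them.

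Of 7 measured receptor genes 4 were detected. Il10rb, the subunit that interleukin 22 and interleukin 10 receptors share, read 6.46, 6.45 and 6.73, and Osmr, the oncostatin M receptor, 5.43, 5.41 and 5.52. Il10ra (6.14 ± 0.016) and Lifr, the leukemia inhibitory factor receptor (4.90 ± 0.058), were also detected. Lifr was so on 1 of its 3 probes, and close to the controls' 95th percentile (4.75 to 4.83). Il22ra1, the subunit specific to interleukin 22 and its relatives (4.51 ± 0.074), and Il6ra, the interleukin 6 receptor (4.52 ± 0.051), were not detected. Il6st, which encodes the shared subunit gp130, passed on 2 arrays (4.65, 5.25 and 5.03).

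All 7 signalling genes were detected, where a gene counts if any of its probes does. Jak2 and Tyk2 were detected on 1 of 3 probes, Stat3 and Pias3 on 2 of 3, and Jak1, Socs3 and Ptpn6 on every probe. Stat3 itself read 9.68, 9.67 and 9.73, and Socs3, the feedback inhibitor that STAT3 switches on, 9.34, 9.24 and 9.25. The arrays barely differed for either, with ranges of 0.059 and 0.1. The kinase genes Jak1 (5.03 ± 0.11), Jak2 (5.52 ± 0.17) and Tyk2 (7.60 ± 0.038) and the inhibitors Pias3 (5.66 ± 0.086) and Ptpn6 (8.74 ± 0.075) completed the list. Jak1 lay close to the controls' 95th percentile (4.75 to 4.83). Of 8 measured target genes 7 were detected, with a median level of 6.01 over the 8. Junb (11.21 ± 0.081), Cebpb (10.21 ± 0.029) and Lcn2 (9.54 ± 0.067) were the brightest. Lcn2 encodes the secreted defence protein lipocalin 2 and was named after its value was seen. Saa3 (6.10 ± 0.042), Timp1 (5.93 ± 0.057), Bcl3 (5.80 ± 0.15) and Pim1 (4.95 ± 0.1) read lower. Pim1 was detected on 1 of its 2 probes and lay close to the controls' 95th percentile. Myc was at background (4.41 ± 0.11). Extl3, an exostosin-like glycosyltransferase proposed as a receptor of Reg proteins, was detected on 2 of its 4 probes, the brightest at 11.68, 11.71 and 11.63.

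**Figure D5:**
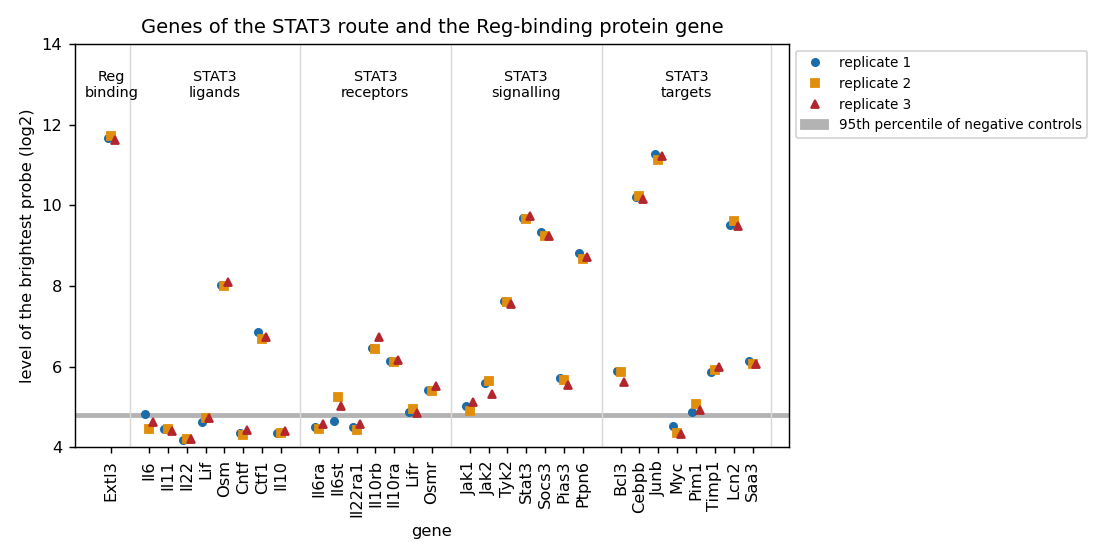
Normalised log2 level of the brightest probe of Extl3 and of the genes of the STAT3 route on the 3 arrays, grouped by role, with the negative controls' 95th percentile as a grey band. Of the ligands Osm and Ctf1 stand above the band, all signalling genes do on all 3 arrays, and no detected gene spreads over 0.5 log2 units between arrays.

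Genes that acinar injury is known to raise alongside Reg3b were detected for 10 of 11 measured members (90.9%, against 40.9% of named genes). None of the 10 ranged over 0.5 log2 units, where 185 of the 6787 detected named genes did. Nupr1, a stress protein first found in pancreatitis, read 14.13, 14.15 and 14.13, Clu, which encodes clusterin, 14.30, 14.30 and 14.32, Vmp1, an autophagy protein of injured acinar cells, 7.92, 7.89 and 7.88, and Atf3, a stress-response factor, 8.34, 8.33 and 8.09. Their ranges were 0.019, 0.02, 0.037 and 0.26, and on Atf3 replicate 3 was the lowest array. For Vmp1 that is the range of the brightest probe, while its dimmest detected probe ranged over 0.418. Nupr1 and Clu were bright (deposited intensities of 17797 to 18225 and 19213 to 20968). Whether such brightness compresses differences was not tested, so their narrow ranges do not show steady RNA. Among markers of the gut secretory cells that also make Reg proteins, 4 of 8 measured genes were detected. Lyz1, a lysozyme of Paneth cells, read 12.71 ± 0.026; its sequence is close to that of Lyz2. Ang4 (4.44 ± 0.12), Itln1 (4.63 ± 0.14) and Retnlb (4.28 ± 0.041) were at background, and Zg16, also a zymogen granule gene of the pancreas and named after its value was seen, read 14.88 ± 0.023.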

How the data were processed

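Per the file headers, the authors deposited an average bead intensity and a detection p-value per probe for each of 3 arrays; equal column means show that the intensities had been scaled before deposit. A second deposited table of processed intensity values shares 1 distribution across arrays and the rank order of the scanner columns; the sources used here do not give its target. Of 25697 probes, 23978 had 1 symbol in the platform annotation, 0 had several and 1719 were unnamed; 23962 matched RefSeq (GRCm38.p6) by Entrez identifier and 0 symbols changed. Intensities were background-corrected by normexp with control moments inferred from the detection p-values (offset 16), quantile normalised and taken to log2 (limma 3.58.1, R 4.3.3). The steps recovered known shifts when tested on simulated data. Those shifts were placed in probes dimmer than Reg1, Reg2, Reg3a and the brighter Reg3b probe. No compression of the brightest signals was simulated, so that run does not cover these 4 probes. The simulated arrays also shared the same background and scale. The run therefore does not cover how differences between arrays in either were corrected. Genes with several probes were represented by the brightest. No test between groups was possible with 1 group. The members, the gene lists and the naming rule were chosen with earlier results of these data known. The rule took every Reg probe, all detected ligands, receptors and signalling genes, and the 5 probes nearest the widest-ranging Reg probe. It took up to 4 other genes a list. The undetected ligands and receptors were added, as were the whole myeloid, STAT3 target, delta cell and islet hormone lists. Promoter motifs were read from RefSeq windows in Python 3.11.15. The number of arrays limits the precision.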

Additional observations from a re-analysis of the deposited data

How the results depend on the processing

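The counts of detected Reg probes (7 to 8), detected Reg genes (6 to 7) and detected STAT3 route genes (17 to 21) stayed within 1.5 times their reported values at a detection p under 0.01, with those p-values adjusted by array, with 2 of 3 arrays and without each replicate. The count of Reg probes ranging over 0.5 log2 units was 2 under median scaling, without background correction, with an offset of 50, with a stricter filter and in the authors' processed table, and 0 to 2 when each replicate was left out: 0 without replicate 3 and 1 without replicate 2. Of 56 levels of single probes under the alternatives, 11 moved by more than the SD between arrays, as did 13 of 56 ranges. Reg4, at 4.88, read 5.99 with an offset of 50, 6.12 without background correction and 6.01 in the authors' processed table. Which array was highest without replicate 3 could not be asked. No paired analysis was possible because there was 1 group. With 3 arrays an SD is itself imprecise, and at this signal a probe such as that of Reg4 cannot be told from background.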
